A study of Arabidopsis thaliana with 12 samples.

Results

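The comparison described here is that of roots overexpressing CRR with wild-type roots, both grown without added phosphate (Pi). It uses 6 of the 12 RNA-seq libraries of the series, chosen by genotype and medium alone, with 3 libraries of CRR OE -Pi and 3 of Col-0 -Pi. Col-0 is the Arabidopsis thaliana wild type. CRR OE is the Col-0 background carrying CRR behind the 35S promoter, which is active in nearly all plant cells, as a fusion to green fluorescent protein in the study's methods, and 1 transgenic line was sequenced. All seedlings were 7 days old and only their roots, pooled within a library, were used. The +Pi medium was brought to 1 mM Pi, and the -Pi medium had no Pi added beyond the residue of its ingredients. The other 6 libraries are the same 2 genotypes in +Pi.

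Expression was given for 19802 genes as 1 value per group, the authors' mean in log2 CPM (counts scaled to the size of each library), so that a difference of 1 between 2 values is 2-fold. The spread between the libraries of a group and their depth are unknown from this table, so no difference below has a replicate error or a test, and "higher" and "lower" describe the 2 means only. A gene was counted when its mean over the 4 groups was at least 1 log2 CPM, which 17997 genes reached, and it was called past 2-fold when its means differed by at least 1. In bulk roots, fewer cells of a type and less RNA per cell cannot be told apart.

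Roots short of Pi turn on a starvation programme led by the transcription factor PHR1, with SPX proteins as its Pi-dependent inhibitors. Iron is tied to the same stress, because iron that accumulates in the cell walls of the root tip under low Pi is part of the signal that stops primary root growth, a process that needs the ferroxidase LPR1. CRR belongs to the CYBDOM proteins, membrane proteins that join a cytochrome b561 domain to a DOMON domain and can pass electrons from ascorbate inside the cell to ferric iron outside it.

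The libraries had the profile of roots. All 28 root tissue markers were in the table, at 0.25 to 7.30 log2 CPM over both -Pi groups, with the quiescent centre gene WOX5 the lowest. The 47 leaf photosynthesis genes (light-harvesting, photosystem and small Rubisco subunit genes) summed to 614 CPM in Col-0 -Pi and 587 CPM in CRR OE -Pi, against 699 and 647 CPM in the +Pi groups, and none of the 36 that passed the level filter differed 2-fold in -Pi. Of these 36, 23 were above 0 and 13 below. The 8 reference genes differed by -0.13 to 0.17 between the genotypes in -Pi, and the median difference of all counted genes was 0.00.

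CRR (AT3G25290; chromosome 3, 9208861 to 9210653, TAIR10) stood at 5.96 log2 CPM in Col-0 +Pi, 5.95 in Col-0 -Pi, 12.70 in CRR OE +Pi and 12.72 in CRR OE -Pi. In -Pi this was 62.0 CPM against 6750 CPM, a 109-fold difference, as the genotype labels would have it, in both media. Reads of the transgene and of the resident gene are counted together. Of the 9 CYBDOM genes measured, CRR was the 1 past 2-fold. CRR-H1, its closest homologue, differed by 0.19 in -Pi. HYP1, another family member, was at 5.26 log2 CPM in Col-0 -Pi and 4.78 in CRR OE -Pi (-0.48), the lowest difference of the 9.

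In -Pi, 106 of the 17997 genes (0.589%) were past 2-fold between CRR OE and Col-0, 54 higher in CRR OE (0.3%) and 52 lower (0.289%). Of these, 105 are protein-coding genes and 1 is a long non-coding RNA. In +Pi, in libraries that the -Pi comparison does not use, the same rule gave 8 genes (0.0445%), 2 higher (0.0111%) and 6 lower (0.0333%). Most of the genes past 2-fold in -Pi differed by less than 0.5 between the genotypes when Pi was added. The 53 higher genes other than CRR had a median difference of 1.24 in -Pi and of -0.04 in +Pi (range -0.66 to 0.79), and 47 of them were within 0.5 of 0 in +Pi. The 52 lower genes had a median of -1.23 in -Pi and of -0.03 in +Pi (range -1.65 to 0.68), and 43 were within 0.5. A difference beyond 0.5 in +Pi was still more common among these genes than over all counted genes. Over all counted genes, the 99th percentile of the absolute +Pi difference was 0.65 at 1 to 2 log2 CPM. It was 0.48 at 2 to 4, 0.35 at 4 to 6 and 0.31 above 6. The signs in +Pi were split, with 23 of the 53 higher genes above 0 and 26 of the 52 lower genes below it.

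**Figure D1:**
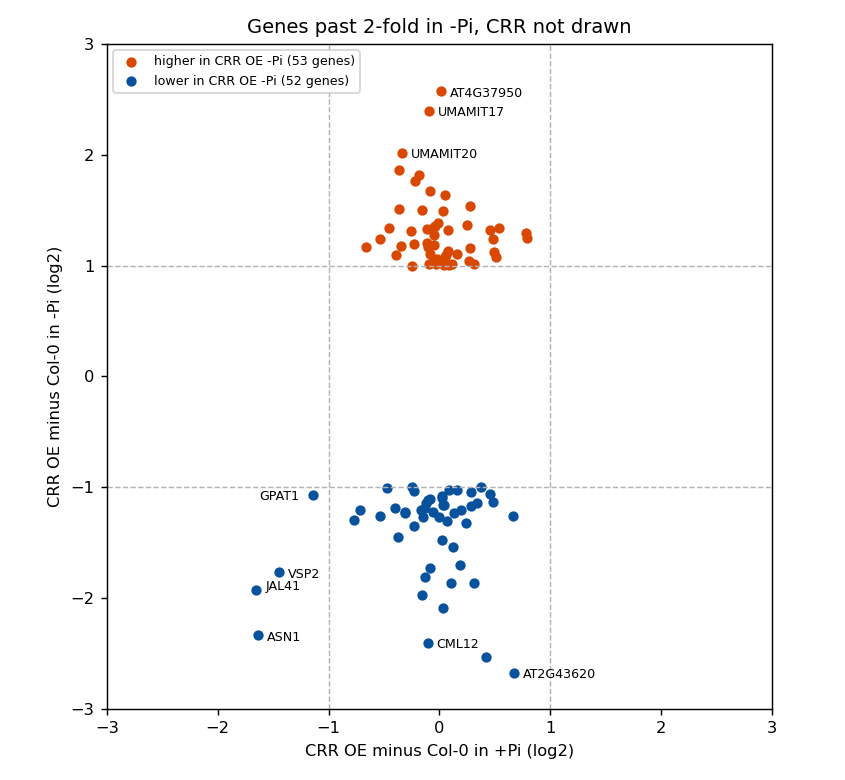
Difference between CRR OE and Col-0 (log2) in -Pi (vertical axis) against the same difference in +Pi (horizontal axis), 1 point per gene for the 53 higher and 52 lower genes of the -Pi comparison without CRR. Dashed lines mark 2-fold. The points form a band around 0 on the horizontal axis, and 4 lower genes (GPAT1, ASN1, VSP2 and JAL41) lie beyond 2-fold in both media.

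How far apart 2 group means lie depends on the level of the gene. Among the 1488 genes at 1 to 2 log2 CPM the 99th percentile of the absolute difference was 1.30 in -Pi and 0.65 in +Pi, and 38 of the 106 genes came from this band. Among the 5368 genes at 2 to 4 log2 CPM it was 0.92 in -Pi and 0.48 in +Pi. Of the 7407 genes at 4 to 6 log2 CPM, 21 were past 2-fold in -Pi and 3 in +Pi, and of the 3734 above 6 log2 CPM, 10 and 1. The wider spread of differences in -Pi was present in each of the 4 bands.

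The 15 largest positive differences after this rule, CRR among them, were of genes whose lowest mean was that of Col-0 -Pi. Ranking by the difference in -Pi favours genes with an extreme mean in a -Pi group, so this arrangement is in part a result of the choice. AT4G37950, an uncharacterized protein, was at 2.07 log2 CPM in Col-0 +Pi, -0.73 in Col-0 -Pi, 2.09 in CRR OE +Pi and 1.85 in CRR OE -Pi, a difference in -Pi of 2.57 (6.0-fold). The other 3 groups lay within 0.5 of each other. Next came a pair of neighbouring genes of the UMAMIT family, membrane proteins that move amino acids out of cells or vacuoles. UMAMIT17 (chromosome 4, 5244865 to 5248394) was at 5.23, 1.48, 5.14 and 3.88 log2 CPM in the same order of groups, a difference of 2.40 in -Pi. UMAMIT20 (chromosome 4, 5238773 to 5241112), which ends 3752 bases before it, was at 4.88, 1.71, 4.54 and 3.73, a difference of 2.02. In both, CRR OE -Pi lay between Col-0 -Pi and the 2 +Pi groups.

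GRXS11, a monothiol glutaredoxin, was at 1.59 log2 CPM in Col-0 +Pi, -0.11 in Col-0 -Pi, 1.23 in CRR OE +Pi and 1.75 in CRR OE -Pi (difference in -Pi 1.86). It was the 1 member of the CC-type glutaredoxin list past the level filter. The class III peroxidase PER5, one of the secreted enzymes that use hydrogen peroxide at the cell wall, was at 2.63, 0.20, 2.41 and 1.97 (1.77). AT3G06355, the long non-coding RNA, was at 2.08, 1.02, 2.00 and 2.69 (1.67), and in contrast to most of the others its mean in CRR OE -Pi was above both +Pi means. SCPL31, a serine carboxypeptidase-like protein, was at 6.54, 4.40, 6.82 and 5.94 (1.54). BGAL4, a beta-galactosidase, was the most abundant of the set after CRR, at 7.47, 5.36, 7.46 and 6.74, which in -Pi is 41.0 CPM against 107 CPM (2.61-fold). CSLB5, a cellulose synthase-like glycosyltransferase, was at 5.13, 3.91, 5.38 and 5.28 (1.37). The others, AT1G78230, AT1G73120, AT3G46880, AT4G37700 and AT3G19430, carried no name in the files and differed by 1.49 to 1.81.

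The 15 largest negative differences showed the opposite arrangement, with Col-0 -Pi as the highest group in each of them. Ranking by the difference in -Pi likewise favours it. AT2G43620, annotated as an endochitinase, was at 1.41 log2 CPM in Col-0 +Pi, 4.48 in Col-0 -Pi, 2.09 in CRR OE +Pi and 1.8 in CRR OE -Pi, a difference in -Pi of -2.68 (22.3 against 3.49 CPM). CML12, a calmodulin-like calcium sensor also known for its induction by touch, was at 3.43, 6.12, 3.33 and 3.72 (-2.40). Both were near their +Pi levels in CRR OE -Pi. SULTR3;2, of the sulfate transporter family, was at 1.00, 2.65, 0.84 and 0.68 (-1.97), and it passed the level filter only through its Col-0 -Pi mean. UMAMIT36 was at 2.26, 3.14, 2.30 and 1.05 (-2.09), and here CRR OE -Pi was lower than both +Pi groups. NIT4, the nitrilase that detoxifies the cyanide product beta-cyanoalanine, was at 1.08, 2.16, 1.40 and 0.30 (-1.87), again lowest in CRR OE -Pi. It too passed the level filter only through Col-0 -Pi.

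PER49 was the most abundant of these genes in Col-0 -Pi, at 5.43, 6.82, 5.30 and 5.01 log2 CPM, which in -Pi is 113 against 32.3 CPM (-1.81). PER54 was at 3.31, 4.85, 3.23 and 3.12 (-1.73). TPS25, a terpene synthase, was at 3.64, 4.32, 3.67 and 2.84 (-1.48), and AT1G71200, a basic helix-loop-helix protein, at 2.85, 3.28, 2.97 and 1.74 (-1.54). The remaining 3 without a gene name, AT1G52700 (a hydrolase), AT4G39830 and AT2G24600 (an ankyrin repeat protein), differed by -2.53, -1.86 and -1.70.

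**Figure D2:**
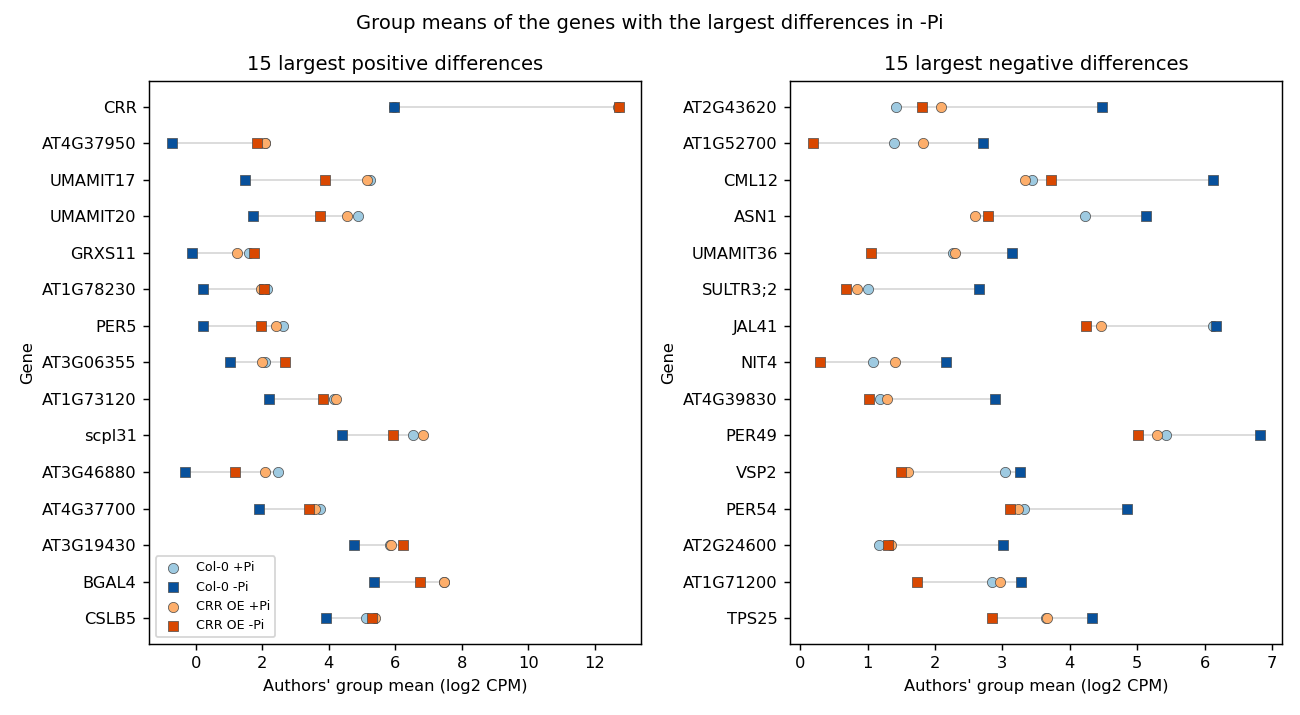
Authors' group means (log2 CPM, horizontal axis) of the 15 genes with the largest positive (left) and the 15 with the largest negative (right) differences between CRR OE and Col-0 in -Pi. Circles are +Pi and squares -Pi, blue is Col-0 and orange CRR OE, and the grey line spans the 4 means. On the left Col-0 -Pi (dark blue) is the lowest mean of every gene, and on the right it is the highest. Ranking by the difference in -Pi favours this arrangement.

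A small set of lower genes differed in both media. ASN1, an asparagine synthetase that plants induce in the dark and when sugar is short, was at 4.23 log2 CPM in Col-0 +Pi and 2.60 in CRR OE +Pi (-1.64), and at 5.12 and 2.79 in -Pi (-2.34). Of 9 genes counted for sugar starvation and branched-chain amino acid breakdown, it was the 1 past 2-fold in -Pi, where 0.289% of all counted genes were lower. The list median was -0.05, with 6 below 0 and 3 above, BT2 (0.56), DIN10 (0.36) and MCCA (0.17). JAL41, a jacalin-related lectin, was at 6.12 and 4.47 in +Pi (-1.65) and 6.17 and 4.25 in -Pi (-1.93). VSP2, a vegetative storage protein and standard jasmonate marker, was at 3.04 and 1.60 in +Pi (-1.44) and 3.27 and 1.5 in -Pi (-1.77). The other 6 of 7 jasmonate and salicylate genes counted were within 0.5 of 0 in -Pi (list median -0.18), among them VSP1 (-0.19), AOS (-0.24), which acts early in jasmonate synthesis, and the jasmonate repressor JAZ5 (0.23). GPAT1, a glycerol-3-phosphate acyltransferase, was at 1.84 and 0.71 in +Pi (-1.14) and 1.56 and 0.49 in -Pi (-1.07), and is named here because it was in the overlap after values were seen. With CRR these 4 make 5 counted genes past 2-fold in both media, out of 106 in -Pi and 8 in +Pi. Some genes under the level filter that were over 2-fold apart in both media are given under other observations.

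The Pi starvation genes were at the same level in both genotypes within 2-fold. Of 15 genes for Pi signalling and its non-coding RNAs, 0 were past 2-fold in -Pi, and their differences ran from -0.27 to 0.23 with a median of 0.01. SPX1, the Pi-dependent inhibitor of PHR1, was at 2.89 log2 CPM in Col-0 +Pi, 9.59 in Col-0 -Pi, 2.70 in CRR OE +Pi and 9.46 in CRR OE -Pi. IPS1, a non-coding RNA that sequesters the microRNA miR399, was at -1.57, 8.53, -1.74 and 8.35. Both genotypes thus had the marker RNAs of low Pi at high level in -Pi. The 4 of 8 high-affinity PHT1 transporters past the level filter differed by -0.24 to 0.10 in -Pi (median -0.08). Of 16 enzymes for Pi recycling, 0 were past 2-fold and 13 were below 0, as were 49.9% of all 17997 genes, with a median of -0.16. RNS1, a secreted ribonuclease, had the largest difference of them, at 1.12, 3.88, 1.54 and 2.99 log2 CPM (-0.90). The acid phosphatase PAP17 was at 8.30 in Col-0 -Pi and 7.97 in CRR OE -Pi (-0.33).

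Genes that act in the low Pi growth arrest of the root did not reach 2-fold either. The 12 measured differed by -0.45 to 0.21, with a median of -0.10. The ferroxidase genes LPR1 (3.30 against 3.12 log2 CPM in -Pi) and LPR2 (5.12 against 4.89), and PDR2, the P5-type ATPase that restrains LPR1 (7.22 against 7.43), all differed by less than 0.25. ALMT1, which exports malate, was at 5.55 in Col-0 -Pi and 5.10 in CRR OE -Pi (-0.45).

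The iron genes were divided. Of the 18 genes counted for iron uptake, coumarins and nicotianamine, 3 were past 2-fold higher and 2 lower in CRR OE -Pi. Above 0 were 7 and below 0 were 11, and the median was -0.14 in -Pi and 0.26 in +Pi. Over all 17997 genes 0.3% were past 2-fold higher, 0.289% lower, and 50.1% were above 0. FRO2, the ferric chelate reductase of the root surface, was at 6.38 log2 CPM in Col-0 +Pi, 4.88 in Col-0 -Pi, 6.84 in CRR OE +Pi and 6.21 in CRR OE -Pi, a difference in -Pi of 1.32 (29.5 against 73.9 CPM). IRT1, the transporter that takes up the ferrous iron FRO2 makes, was at 7.31, 5.10, 7.80 and 6.35 (1.24, or 34.4 against 81.4 CPM). CYP82C4, the cytochrome P450 that makes the coumarin sideretin, was at 5.52, 2.00, 6.06 and 3.34 (1.34). In these 3 genes the -Pi mean of each genotype was below its +Pi mean, and CRR OE was also the higher genotype in +Pi, by 0.46, 0.49 and 0.54, short of 2-fold.

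FRO5 and NAS2 were the 2 lower genes of this list. FRO5, a reductase of the FRO family that acts on copper, was at 6.85, 5.49, 6.85 and 4.22 log2 CPM (-1.27). Its neighbour and relative FRO4 was at 5.77, 7.24, 5.91 and 6.45 (-0.79). NAS2, which makes the metal chelator nicotianamine, was at 5.67, 5.85, 5.96 and 4.68 (-1.17), and NAS4 and NAS1 differed by -0.65 and -0.28. F6'H1, which makes the coumarin scopoletin, differed by 0.06.

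The regulators above these genes that passed the level filter showed smaller differences. FIT, the transcription factor that activates FRO2 and IRT1, was at 6.20, 5.68, 6.40 and 5.49 log2 CPM (-0.19). BHLH38, its partner in iron deficiency, was at 2.55, 2.41, 3.19 and 3.01, a difference of 0.60 in -Pi and of 0.64 in +Pi. None of the 11 regulators counted was past 2-fold. BHLH100, of the same subgroup as BHLH38, was under the level filter and is not among the 11. Its means in -Pi, given under other observations, were over 2-fold apart, with CRR OE the higher. Among 10 genes for iron storage and vacuolar transport, 1 was past 2-fold higher, against 0.3% of all counted genes. VTL2, a vacuolar iron transporter-like protein that is low when iron is short, was at 3.49, 2.02, 3.65 and 3.12 (1.10, or 0.94 with 1 CPM added before the logarithm, under 2-fold), and VTL1 at 4.71, 2.76, 4.91 and 3.73 (0.97). The ferritin FER1 was at 7.58 in Col-0 -Pi and 7.39 in CRR OE -Pi (-0.19).

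FRO4 and FRO5 led to a look at copper genes, in 2 lists drawn up after these values were seen, which therefore describe a choice. The first holds genes that are induced when copper is short. The 8 counted include FRO4 and FRO5, whose low values prompted the list, and FRO5 is the 1 past 2-fold. All 8 were lower in CRR OE -Pi, where 49.9% of all counted genes were below 0 and 0.289% past 2-fold lower. Their median was -0.64 in -Pi and 0.04 in +Pi. The copper transporter genes COPT2 (5.66 log2 CPM in Col-0 -Pi and 4.90 in CRR OE -Pi, difference -0.76) and COPT1 (2.38 and 1.67, -0.71) and the iron superoxide dismutase FSD1 (9.48 and 8.91, -0.56) are among them. The second holds targets of the microRNAs that cut back copper proteins when copper is short. Of 10 counted, 8 were above 0, against 50.1% of all genes, and 2 were past 2-fold higher, against 0.3%. Their median was 0.35 in -Pi and 0.11 in +Pi. The copper/zinc superoxide dismutase CSD1 was at 7.43 in Col-0 -Pi and 8.19 in CRR OE -Pi (0.76), CSD2 differed by 0.33, and their copper chaperone CCS by 0.37. The laccase LAC2, a copper oxidase, was at 2.84, 1.94, 2.79 and 3.29 over the 4 groups (1.35). LAC17, the other of the 2 past 2-fold, and LAC4 also stand in the xylem list below. LAC17 differed by 1.01, or by 0.99 with 1 CPM added before the logarithm, under 2-fold. LAC12, at 1.92 and 1.29 in -Pi (-0.63), went the other way.

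**Figure D3:**
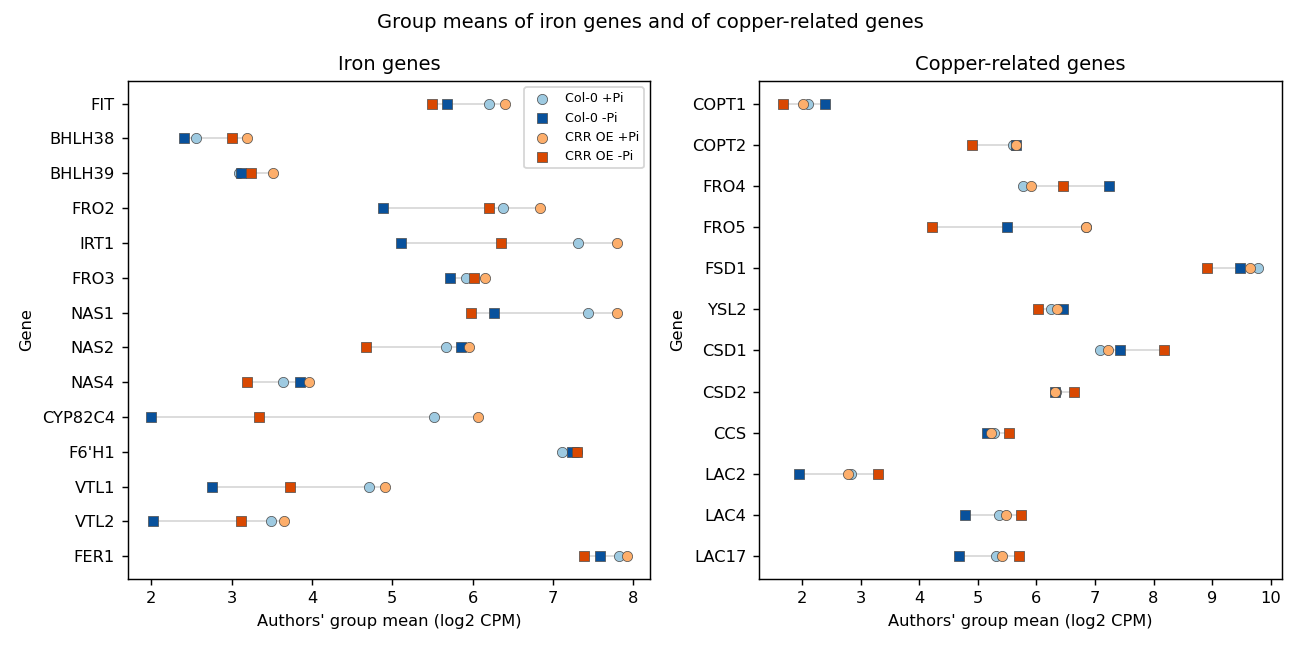
Authors' group means (log2 CPM, horizontal axis) of iron genes (left) and copper-related genes (right), with circles for +Pi and squares for -Pi, blue for Col-0 and orange for CRR OE. FRO2, IRT1, CYP82C4, VTL1 and VTL2 have their lowest mean in Col-0 -Pi, whereas NAS2, FRO5, COPT1, COPT2 and FSD1 have theirs in CRR OE -Pi and CSD1 its highest there.

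Genes of the xylem and of secondary wall formation were higher as a whole list. All 15 counted were above 0 in -Pi, from 0.11 to 1.01 with a median of 0.60, against 50.1% of all 17997 genes above 0, and the median of the same 15 in +Pi was 0.10. The list had 1 gene past 2-fold, LAC17, a laccase that polymerizes lignin, at 5.31 log2 CPM in Col-0 +Pi, 4.68 in Col-0 -Pi, 5.42 in CRR OE +Pi and 5.70 in CRR OE -Pi (1.01, or 0.99 with 1 CPM added, under 2-fold). LAC4 differed by 0.97, LAC11 by 0.71 and the xylem cysteine peptidase XCP2 by 0.69. The cellulose synthases of the secondary wall, CESA4, CESA7 and CESA8, differed by 0.59, 0.60 and 0.61. VND6 and VND7, the switches of vessel cell fate, were at 1.05 and 1.07 log2 CPM in Col-0 -Pi and differed by 0.27 and 0.11. LAC4 and LAC17 also stand in the copper list above. GUX1, a xylan glucuronosyltransferase outside the list that was picked after its value was seen, differed by 1.08.

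The root tip lists pointed the other way and by less. All 9 stem cell niche and root cap genes counted were below 0 in -Pi, against 49.9% of all counted genes. They ran from -0.48 to -0.12 with a median of -0.31, and their median in +Pi was -0.11. The quiescent centre gene WOX5, under the level filter, was at 1.01 in Col-0 -Pi and 0.25 in CRR OE -Pi (-0.76). PLT3, one of the PLETHORA factors that maintain the meristem, was at 5.31, 5.85, 5.31 and 5.37 log2 CPM (-0.48), BBM differed by -0.37 and the root cap factor SMB by -0.38. For these genes Col-0 -Pi was the highest group. The 15 cell division genes stayed within -0.19 and 0.22, with a median of -0.04. Of these 15, 12 were below 0, against 49.9% of all counted genes. The other tissue lists had medians in -Pi of -0.01 for 20 root hair genes, 0.09 for 9 Casparian strip genes and -0.02 for 16 suberin genes, and in +Pi of 0.23, 0.02 and 0.23. In the root hair list 9 genes were above 0 in -Pi and 11 below. The wall protein PRP1 was at 5.14 in Col-0 -Pi and 4.36 in CRR OE -Pi (-0.78), and RSL4, which drives hair growth, at 3.73 and 3.06 (-0.67). LRL3 (0.33) and the root hair markers EXPA7 (0.31) and LRX1 (0.30) went the other way.

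Cell wall families had members on both sides. Of 48 class III peroxidases counted, 2 were higher (PER5 and PER4) and 6 lower (PER49, PER54, PER25, PER15, PER53 and PER37), with a median of -0.09, where 0.3% of all counted genes were higher and 0.289% lower. PER37 was the most abundant of the 8 in Col-0 -Pi, at 142 CPM against 66.0 CPM in CRR OE -Pi (-1.11). Of 37 arabinogalactan proteins, extracellular glycoproteins, 1 was past 2-fold in -Pi (AGP13) and 1 in +Pi (FLA6, 1.11, with -0.33 in -Pi). In -Pi 31 were above 0, against 50.1% of all genes, and the median was 0.22 in -Pi and 0.00 in +Pi. AGP13 was at 3.44, 2.32, 3.41 and 3.68 log2 CPM (1.36), and AGP30, AGP14 and FLA13 differed by 0.99, 0.95 and 0.92. Among 32 pectin methylesterases and their inhibitors, 3 were lower, PMEI11 (-1.45), PME12 (-1.22) and PME41 (-1.03), while PME16 differed by 0.98. Among 25 xyloglucan endotransglucosylases XTH13 was lower (-1.0) and XTH21 differed by 0.99. No expansin (17 counted) or extensin (33 counted) was past 2-fold.

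**Figure D4:**
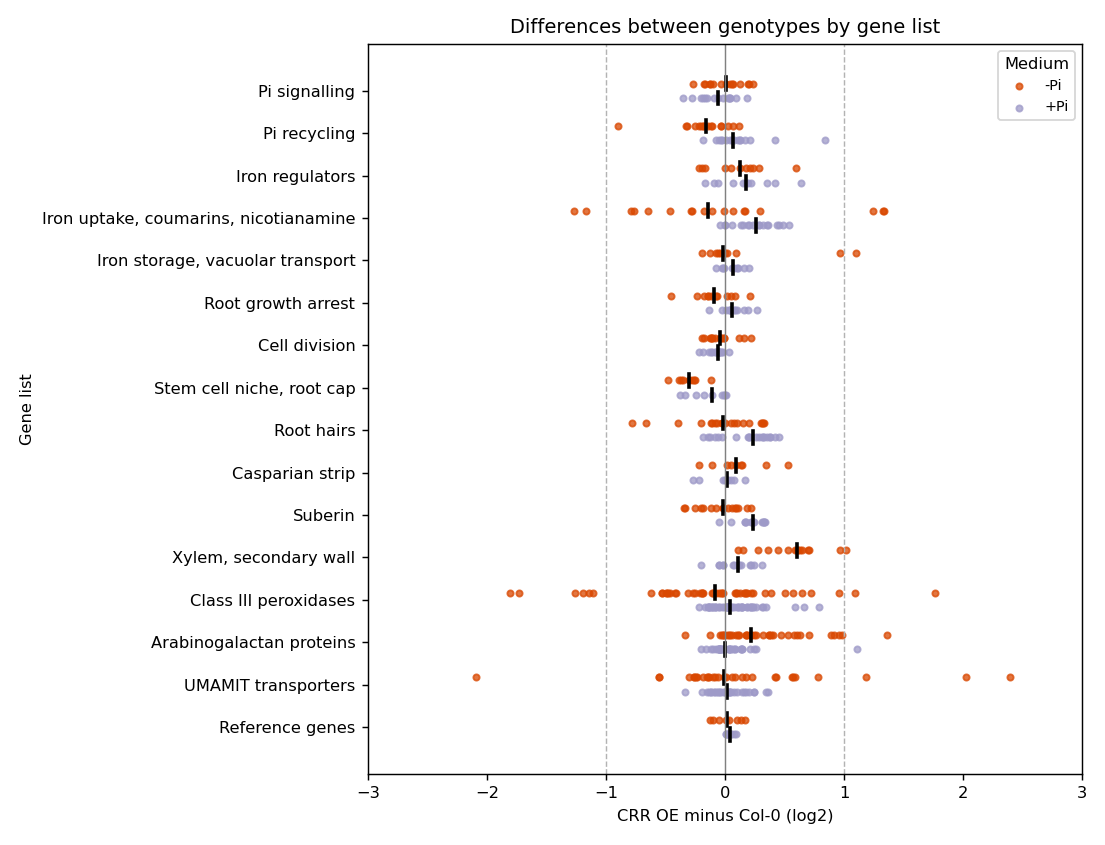
Difference between CRR OE and Col-0 (log2, horizontal axis) of every counted member of 16 gene lists, in -Pi (orange, upper row of each list) and +Pi (purple, lower row), with a black bar at the median. Dashed lines mark 2-fold. The 15 xylem and secondary wall genes lie to the right of 0 in -Pi with a median of 0.60, the 9 stem cell niche and root cap genes lie to the left, and the peroxidases and UMAMIT transporters reach past 2-fold on both sides.

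Defence metabolism was likewise mixed. In the tryptophan-derived pathway 2 of 10 genes were higher, against 0.3% of all counted genes. CYP71A12, which starts the branch to camalexin and related compounds from indole-3-acetaldoxime, was at 3.42 log2 CPM in Col-0 +Pi, 4.48 in Col-0 -Pi, 4.21 in CRR OE +Pi and 5.73 in CRR OE -Pi (1.25), and FOX1, an oxidase of the 4-hydroxyindole-3-carbonyl nitrile pathway, at 1.27, 1.79, 2.05 and 3.09 (1.30). Both were highest in CRR OE -Pi and differed by 0.79 and 0.78 in +Pi. PAD3, the last enzyme of camalexin synthesis, differed by -0.49. Of 42 glutathione S-transferases, 3 were lower, GSTU4 (-1.21), GSTF2 (-1.04) and GSTF14 (-1.03, or -0.92 with 1 CPM added), against 0.289% of all genes, and 30 were below 0, against 49.9% of all genes. Of 126 cytochromes P450, 2 were higher (CYP82C4 and CYP71A12) and 3 lower (CYP96A8, CYP705A2 and CYP94C1), and with 1 CPM added these 3 were under 2-fold (-0.87, -0.85 and -0.79). Marneral synthase, MRN1, which makes a triterpene, was at 3.56, 3.07, 3.64 and 4.39 (1.32), the highest mean again in CRR OE -Pi.

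In nitrogen metabolism NIA1, a nitrate reductase, was at 7.15, 6.78, 7.60 and 5.72 log2 CPM (-1.07, or 110 against 52.7 CPM), so that CRR OE was above Col-0 in +Pi, by 0.46, and below it in -Pi. The second nitrate reductase gene, NIA2, differed by -0.45 and the nitrite reductase gene NIR1 by -0.46 in -Pi. Of the 31 UMAMIT genes counted, 3 were higher and 1 lower, against 0.3% and 0.289% of all counted genes. UMAMIT10 was at 1.42, 2.49, 1.37 and 3.67 (1.18), and unlike UMAMIT17 and UMAMIT20 it was highest in CRR OE -Pi. The 178 cytosolic ribosomal protein genes differed by -0.28 to 0.54, with a median of -0.04.

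Some genes past 2-fold sit side by side. In 6 pairs no other measured gene lay between them, a feature noticed after values were seen. PER4 and PER5 (chromosome 1, 4974021 to 4980466), IGMT2 and IGMT4 (chromosome 1, 7395179 to 7400736), UMAMIT20 and UMAMIT17, and AT5G46890 and AT5G46900 (chromosome 5, 19036296 to 19040456) were higher in both members. PER53 and PER54 (chromosome 5, 2077382 to 2081685) were both lower. FOX1 and FOX2 (chromosome 1, 9126737 to 9131779), 1444 bases apart, were opposite, with FOX2 at 1.61, 1.89, 1.14 and 0.88 log2 CPM (-1.01). Members of these pairs are related in sequence, and reads that match both cannot be assigned with certainty, so that the value of each is less certain than that of a single-copy gene.

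Promoters of the genes past 2-fold, taken as 250 bases before to 50 after the annotated start, were scanned on both strands for 3 known motifs. The PHR1 site GNATATNC was in 7.41% of the 54 higher, 1.92% of the 52 lower and 6.16% of 17993 promoters (4, 1 and 1108 promoters). The W box (TTGACC or TTGACT), bound by WRKY factors, was in 35.2%, 40.4% and 32.9% (19, 21 and 5924). The GCC box GCCGCC, bound by ethylene response factors, was in 1.85%, 3.85% and 2.66% (1, 2 and 478). These shares were not tested. A match is a run of letters and not a bound site.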

How the data were processed

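Root RNA-seq libraries (3 per group) were processed by the authors, per their methods and processing notes, with Cutadapt 1.8, STAR 2.5.3a, HTSeq 0.9.1, RSEM 1.2.31, R 3.5.3, edgeR 3.24.3 and limma on TAIR10. The strand setting of the counting is not given in the sources used here. Genes under 1 CPM in every library were removed by the authors, and the deposited values are log2 CPM after TMM scaling, 1 mean per group, so depth, replicate spread, intervals and tests could not be computed. Other deposited tables hold the authors' own fold changes, F statistics and p-values for their comparisons, and none was used.

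Differences of the group means, counts past 2-fold, medians of lists and motif matches were computed in Python 3.11.15 with pandas 2.3.3 and numpy 2.4.6, and the code was tested on simulated data. A gene was counted at a mean of the 4 group means of at least 1 log2 CPM, which is 2 CPM. Named genes were CRR, the 15 largest differences in each direction and up to 4 members of each list with the largest absolute difference. Other list members and genes are named as examples, chosen after values were seen. The members of the 43 lists were chosen with earlier results of these data known. Blank names (9374) were filled for 344 genes from RefSeq's TAIR10.1 annotation, in which 19783 loci were found, 19781 with the same start and end. Promoters came from that assembly. Alternatives were other level filters and fold limits, 1 CPM added before the logarithm, and centring on the median.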

Additional observations from a re-analysis of the deposited data

How the results depend on the processing

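Main counts in -Pi were 54 higher and 52 lower genes, against 8 in +Pi. Without the level filter they became 139, 148 and 57, and with a filter at 3 log2 CPM 29, 18 and 5. A limit of 1.5-fold gave 301, 225 and 70, and one of 4-fold gave 4, 5 and 1. With 1 CPM added to each mean before the logarithm they were 32, 32 and 5: 64 of the 106 genes were still past 2-fold and all 106 kept their sign. Among genes named in the report, AT3G46880, GPAT1, FOX2, IGMT4, GUX1, VTL2, LAC17, PER53, XTH13, PME41, GSTF14, CYP96A8, CYP705A2 and CYP94C1 fell under 2-fold in this way. VTL2 came to 0.94, LAC17 to 0.99 and CYP94C1 to -0.79. The -Pi count exceeded the +Pi count under each of these settings. Centring on the median of all genes gave 53, 52 and 8. Of 176 named genes, adding 1 CPM moved 4 by over 1.5-fold (AT4G37950 to 1.52, GRXS11 to 1.18, AT3G46880 to 0.87, AT1G52700 to -1.82) and reversed 0, and centring moved 0.

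No paired analysis was possible because the values are 1 mean per group, without replicate columns. For the same reason leaving out each replicate, a replicate block and limma with another pseudocount were not run. Whether 1 library decides a mean cannot be seen from these values, and genes at 1 to 2 log2 CPM, with the widest differences in both media, are the least certain.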

Other observations

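A further 1805 genes were under the level filter, and among them 85 were at least 2-fold higher and 96 lower in CRR OE when Pi was withheld, against 23 and 26 in +Pi. The filter took the mean over the 4 groups, so a gene well detected in some groups and not in others could fall under it. Means far below 0 log2 CPM rest on few reads. The genes below were picked by their values and are given as levels, with no test. PER52, a class III peroxidase, was at -1.51 log2 CPM in Col-0 +Pi, 3.76 in Col-0 -Pi, -0.46 in CRR OE +Pi and -0.83 in CRR OE -Pi, and so was under the filter although it was well detected in 1 group. GAD4, a glutamate decarboxylase, was at -0.52, 2.12, -0.56 and -0.63. CML47, calmodulin-like, was at -3.69, 0.91, -3.44 and -2.79. In these 3 genes Col-0 -Pi was the one high group. BHLH100, an iron deficiency regulator of the same subgroup as BHLH38, was at 1.12, -1.08, 1.60 and 1.06, with Col-0 -Pi as the one low group.

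Some genes under the level filter separated the genotypes in both media, and they are not in the counts past 2-fold above. AT1G64795 was at -4.15 log2 CPM in +Pi and -3.56 in -Pi in Col-0, and at 4.10 and 3.65 in CRR OE. AT1G75945 stood at -4.71 in both Col-0 groups, below which no mean in the table goes, and at 2.67 and 2.46 in CRR OE. MAF5, a MADS-box floral repressor, was at -2.72 and -2.66 in Col-0 and at 0.36 and -0.55 in CRR OE.

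A few genes typical of leaves were between -4.71 and -3.27 log2 CPM in the other 3 groups and higher in CRR OE -Pi. TGG1, a myrosinase, was at -4.71 in Col-0 -Pi and -2.29 in CRR OE -Pi, GER3 at -4.71 and -2.14, BCA1, a carbonic anhydrase, at -3.99 and -1.54, and the small Rubisco subunit gene RBCS-2B at -4.10 and -1.81. All of these are under 1 CPM in every group, and the summed level of the 47 leaf photosynthesis genes was 587 CPM in CRR OE -Pi and 614 CPM in Col-0 -Pi, while 31 of the 47 had a higher mean in CRR OE -Pi. The authors' filter asked for 1 CPM in at least 1 library. A single CRR OE -Pi library may therefore carry the raised means of TGG1, GER3, BCA1 and RBCS-2B, which group means cannot show. The part of leaf genes in the differences above was not tested.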
